A study of Oryza sativa with 6 samples.

Results

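The genes described here are those of the cell cycle and of DNA replication: cyclins, cyclin-dependent kinases (CDKs), the origin recognition complex (ORC), the minichromosome maintenance proteins (MCM), replication protein A (RPA), the sliding clamp PCNA, its loader replication factor C (RFC) and DNA polymerases. They were taken by name alone, as genes with a probe set that lists no other gene and with a symbol or synonym that starts with 1 of 12 family prefixes. This gave 68 of the 17905 genes read from the array. Of the 68, 4 match a prefix but belong to other families (CPS2, CPS4, RPS3A and FCA), which leaves 64 genes of the cycle, of replication and of families related to them. A further 10 genes that met the name rule, among them CDKB1-1, ORC6, CYCA3-1, CYCD2-1 and the histone gene H2B1, were not listed alone on any probe set and are not analysed here. The 68 thus hold no core histone gene, and the H2B genes that the rule missed, because their names carry a dot, are given apart.

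RNA came from the third leaf of Nagina22 (N22) rice, a cultivar without any introduced change, detached from plants 30 days old and kept in darkness. The 3 BA-treated samples received the cytokinin 6-benzyl adenine (BA, made by synthesis), given at 2 mg/ml, and the 3 untreated samples stood in the same carrier of dilute alkali and detergent without BA. Both groups were in the dark for 72 h by the extraction protocol, whereas another label field gives 2 h. No sample from the start of the dark period was analysed here, so a value that was lower in one group can be a loss there or a gain in the other. RNA of each leaf sample was hybridized to 1 Affymetrix rice array, and in such bulk tissue fewer cells of a type and less RNA per cell cannot be told apart.

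Cell division in plants is driven by CDKs that become active when bound to a cyclin. D-type cyclins open the way from G1 into S phase, for which ORC and MCM proteins license the origins of replication, and A- and B-type cyclins act from S phase to mitosis. Cytokinins are named for their effect on cell division, and in Arabidopsis they raise D3-type cyclins. A fully grown leaf has largely left the cycle. Other CDKs and cyclins take no direct part in division but regulate RNA polymerase II and splicing, and these are used in resting cells too.

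The authors deposited 1 linear signal per probe set and array. The lowest signal was 16 on every array and the array medians lay between 22.5 and 23.3, so a probe set under that median reads little more than a constant, and its fold change is understated. Log2 changes are BA-treated minus untreated on log2(signal + 1), and every adjusted p is from limma, corrected over 57258 rice probe sets. Signals of different probe sets are not comparable as amounts of RNA. To describe the tissue, the 5 measured leaf mesophyll genes summed to signals between 2141 and 2556 on BA-treated arrays and between 1325 and 2607 on untreated arrays. Bright probe sets weigh most in such a sum, as CAB2R, at 762 to 1585 with BA and 582 to 2126 without. The study reports higher Rubisco, Rubisco activase and cytochrome b6-f transcripts with BA, so these genes do not show tissue make-up alone. The 5 measured meristem genes summed to 135 to 174 with BA and to 150 to 186 without. Of these meristem genes OSH1 and OSH71 lay under the array median on all arrays and OSH6 and OSH43 above it, while FON1 read 30.9 to 65.5 with BA and 44.2 to 81.8 without. Of the 5 leaf genes, petC, rca and RBCS1 were over 1.5-fold higher with BA at an unadjusted p under 0.05 (limma). So were 1.73% of all probe sets, and 3.18% of all genes when each was read, like these, from its brightest probe set. The 3 log2 changes were 1.07, 0.79 and 0.79 (adjusted p = 0.152, 0.311 and 0.152). The groups of the other leaf genes overlapped, at log2 changes of -0.20 for CAB2R and 0.70 for OsrbcS. The 1 measured phloem gene, OsSUT1, read 26.9 to 28.3 with BA and 32.3 to 45.9 without (log2 change -0.49, adjusted p = 0.365). The 3 measured genes of secondary-wall vascular cells summed to 70.4 to 74.8 with BA and to 74.3 to 89.3 without. Of these, CESA7 was lower on every BA-treated array (log2 change -0.13, adjusted p = 0.733), and CESA4 and CESA9 overlapped. On the log2 scale the added poly-A controls gave a difference (BA-treated minus untreated) of -0.86 and the hybridization controls one of -0.44. The 28S rRNA control gave one of -1.44, which rested largely on untreated replicate 3. It read 5.09, 4.88 and 5.18 on the BA-treated arrays, against 5.59, 5.43 and 8.44 on untreated replicates 1, 2 and 3. The most alike arrays were those of BA replicates 2 and 3: over the 68 genes the SD of their log2 difference was 0.124, whereas every other pair gave 0.365 to 0.776. The part of these differences in the results was not tested.

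Across the 68 genes the log2 changes between dark leaves with and without BA centred near 0, but some intervals were wide, as for PCNA (-0.63 to 0.85). None of the 68 had an adjusted p under 0.05, where 0.159% of all probe sets did, and the smallest adjusted p among them was 0.341, that of CDKG-1. Their median log2 change was 0.0029, beside -0.0035 over all rice probe sets, with 37 genes above 0 and 31 below. At the thresholds the study states for its arrays, over 1.5-fold with a p under 0.05 (here from limma, unadjusted), 2 genes were higher with BA (ORC5 and CPS2, or 2.94%) and 1 was lower (CDKG-1, or 1.47%). CPS2 missed them without BA replicate 1 (log2 change 1.71), CDKG-1 without untreated replicate 1 or 2 (both -0.55), and ORC5 without BA replicate 2 (0.53), BA replicate 3 (0.60), untreated replicate 1 (0.55) or untreated replicate 3 (0.52). The same thresholds called 1.73% of all probe sets higher and 2.16% lower, and 3.18% and 4.74% of all genes when each was read, like the 68, from its brightest probe set. An unadjusted p under 0.05 was found for 9 of the 68 (13.2%), against 8.48% of all probe sets and 14.3% of all genes by the brightest probe set. The signals of the 2 groups did not overlap for 9 of the 68 (13.2%), against 14% of all probe sets and 17.7% of all genes by the brightest probe set. Set against genes read in the same way, the shares of the 68 were thus near or under the background, while against all probe sets those for an unadjusted p and for 1.5-fold higher were above it.

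**Figure D1:**
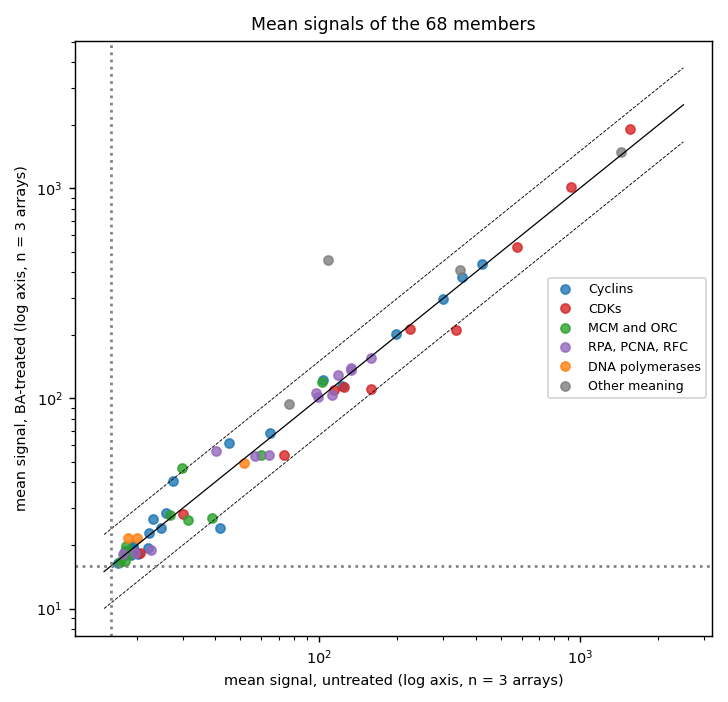
Mean signal of each of the 68 genes in BA-treated leaves (vertical) against untreated leaves (horizontal), n = 3 arrays each, both axes logarithmic and points coloured by role. The solid line marks equal signals, the dashed lines 1.5-fold, and the dotted lines the constant of 16. Most points lie along the line of equal signals, and CPS2 lies farthest above it, at 456 with BA and 108 without.

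Many genes of the division machinery gave almost no signal in either group. The signal lay under the array's own median on all 6 arrays for 18 of the 68 genes (26.5%), against 12.8% of all genes by the brightest probe set. These 18 hold 10 of 25 cyclins, 5 of 12 MCM and ORC genes, 2 of 13 genes of the RPA, PCNA and RFC group, 1 of 11 CDKs and 0 of 3 polymerases. For them a change of transcript could go unseen here.

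**Figure D2:**
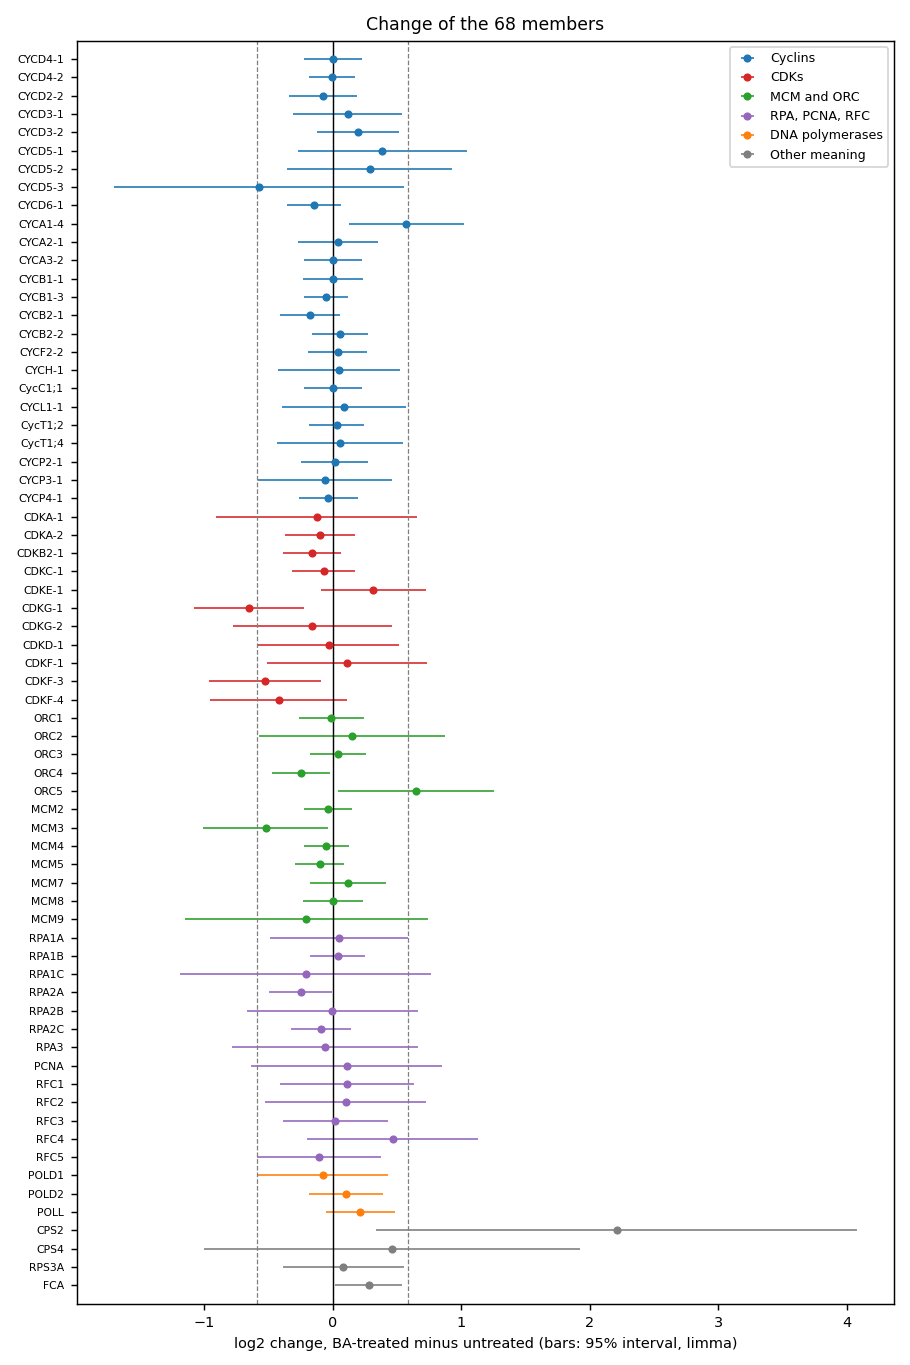
Log2 change (BA-treated minus untreated, horizontal) of each of the 68 genes with its 95% interval from limma, grouped and coloured by role. The solid line marks 0 and the dashed lines 1.5-fold. The intervals of 9 genes leave out 0, among them CDKG-1 at -0.65 and ORC5 at 0.65, and none of these passed the adjusted test.

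D-type cyclins, which start the cycle by letting CDKs switch off the retinoblastoma brake on S phase genes, showed no common direction. Of 9 measured, 5 had a log2 change above 0 and 4 below, with a median of 0.0063 and no call at any threshold over all arrays. CYCD5-1 without BA replicate 1 and CYCD5-3 without untreated replicate 3 passed 1.5-fold and an unadjusted p under 0.05 (limma). Of the 9, 4 lay under the array median on all arrays, where changes are understated. CYCD3-1, of the D3 class, had signals of 21.9, 31.6 and 32.2 in BA-treated leaves, against 23.7, 25.1 and 29.2 in untreated leaves. The groups overlapped, and the log2 change was 0.12 (95% interval -0.31 to 0.54, adjusted p = 0.927). CYCD3-2, the other D3 member, gave 31.2, 24.0 and 25 with BA, against 21.7, 21.8 and 25.8 without. Its log2 change was 0.20 (interval -0.12 to 0.52, adjusted p = 0.819), which leaves room for a modest rise as well as for none. CYCD5-1 read 39.2 on BA replicate 1 and 77.3 and 68.4 on the other BA arrays, against 40.3, 52.4 and 43.2 in untreated leaves. The difference rested on those other BA arrays, with a log2 change of 0.39 over all arrays (adjusted p = 0.83), 0.68 without BA replicate 1 (adjusted p = 0.226) and 0.20 without BA replicate 2 (adjusted p = 0.995). CYCD5-3 had 26.9, 23.5 and 22.0 with BA, against 36.6, 70.9 and 18.2 without, where untreated replicate 3 stood below every BA-treated array. Its log2 change was -0.57 (adjusted p = 0.862), -1.05 without that array (adjusted p = 0.338) and -0.10 without untreated replicate 2 (adjusted p = 0.966). CYCD6-1 was lower on all 3 BA-treated arrays (17.0 to 18.9) than on any untreated array (19.2 to 21.7), but all 6 signals were close to the constant (log2 change -0.14, adjusted p = 0.791). Of the remaining D-type genes, CYCD5-2 had a log2 change of 0.29, with an untreated range of 65.2 to 130 that held every BA-treated signal, and CYCD2-2, CYCD4-1 and CYCD4-2 stayed between 17.1 and 21.7 in both groups.

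Of the A- and B-type cyclins, which act in S phase and mitosis, only CYCA1-4 had groups that differed by an unadjusted p under 0.05. It gave signals of 37.2, 43.1 and 41.5 in BA-treated leaves, against 24.9, 22.0 and 35.4 in untreated leaves. All BA-treated arrays lay above all untreated ones, at a log2 change of 0.57 (standard error 0.18, interval 0.13 to 1.02, adjusted p = 0.441), just under 1.5-fold. Untreated replicate 3 was nearest to the BA-treated arrays, and without it the log2 change was 0.77 (adjusted p = 0.116), whereas without untreated replicate 2 it was 0.43 (adjusted p = 0.569). The other A-type genes, CYCA2-1 and CYCA3-2, had log2 changes of 0.043 and 0.0015 with overlapping groups. Among the B-type genes, CYCB1-1 read between 17.9 and 20.2 with BA and between 17.0 and 19.7 without, and CYCB1-3 had a log2 change of -0.049. CYCA3-2, CYCB1-1 and CYCB1-3 lay under the array median on all arrays, so a change could go unseen there. CYCB2-1 gave 19.1, 20.1 and 18.9 with BA, against 20.4, 21.0 and 24.7 without, with no overlap but a log2 change of only -0.17 (adjusted p = 0.755). CYCB2-2 had a log2 change of 0.057 and CYCF2-2, of the F type, 0.040, both near the constant.

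The CDKs that pair with these cyclins in the cycle itself did not pass any threshold. CDKA-1, the counterpart of the yeast kinase that drives both entry into S phase and mitosis, had signals of 78.3, 126 and 136 in BA-treated leaves, against 90.2, 108 and 177 in untreated leaves. In both groups replicate 1 was the lowest, and the log2 change was -0.12 with a wide interval (-0.90 to 0.66, adjusted p = 0.964). CDKA-2 had a log2 change of -0.095 with overlapping groups. CDKB2-1, of a plant-specific class made around mitosis, gave 19.6, 17.1 and 18.3 with BA, against 20.4, 19.2 and 22.4 without. These signals were near the constant and overlapped (log2 change -0.16, adjusted p = 0.775). The CDK-activating kinase is made of CDKD and cyclin H: CDKD-1 had a log2 change of -0.031 and CYCH-1 of 0.050, each with overlapping groups. CDKF-1, whose Arabidopsis counterpart activates the CDKD kinases, read 697, 1193 and 1155 with BA, against 729, 1077 and 967 without. Its log2 change of 0.11 (adjusted p = 0.957) turned to -0.049 without untreated replicate 1.

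By the brightest probe set of each gene, the lowest p-values of the CDK family belonged to CDKG-1 and CDKF-3, both lower with BA. CDKG-1 is of a class tied in Arabidopsis to splicing together with cyclin L. Its signals were 194, 216 and 224 in BA-treated leaves, against 379, 378 and 255 in untreated leaves. All BA-treated arrays lay below all untreated ones, with untreated replicate 3 the closest, and the log2 change was -0.65 (standard error 0.18, interval -1.08 to -0.22, adjusted p = 0.341). Without untreated replicate 3 it was -0.84 (adjusted p = 0.0804), and without untreated replicate 1 it was -0.55 (adjusted p = 0.505). A second, dimmer probe set of CDKG-1 read 27.6, 28.5 and 34.3 with BA, against 41.4, 36.6 and 28.6 without, with overlap and a log2 change of -0.22. CDKF-3 had 88.0, 117 and 127 with BA, against 164, 133 and 179 without. The groups did not overlap, at a log2 change of -0.52 (standard error 0.18, interval -0.96 to -0.087, adjusted p = 0.485). CDKF-4 gave 44.9, 59.3 and 57.7 with BA, against 57.5, 66.7 and 96.8 without, with untreated replicate 1 inside the BA-treated range (log2 change -0.42, adjusted p = 0.729), and its second probe set gave a like value of -0.41. Of 11 CDK genes 9 had a log2 change below 0, with a median of -0.12, where 9073 of all 17905 genes were below 0. The sign depended on the probe set for some of the 9. The dimmer probe sets of CDKG-2 gave 0.42 and 1.09, and that of CDKA-1 gave 0.062.

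**Figure D3:**
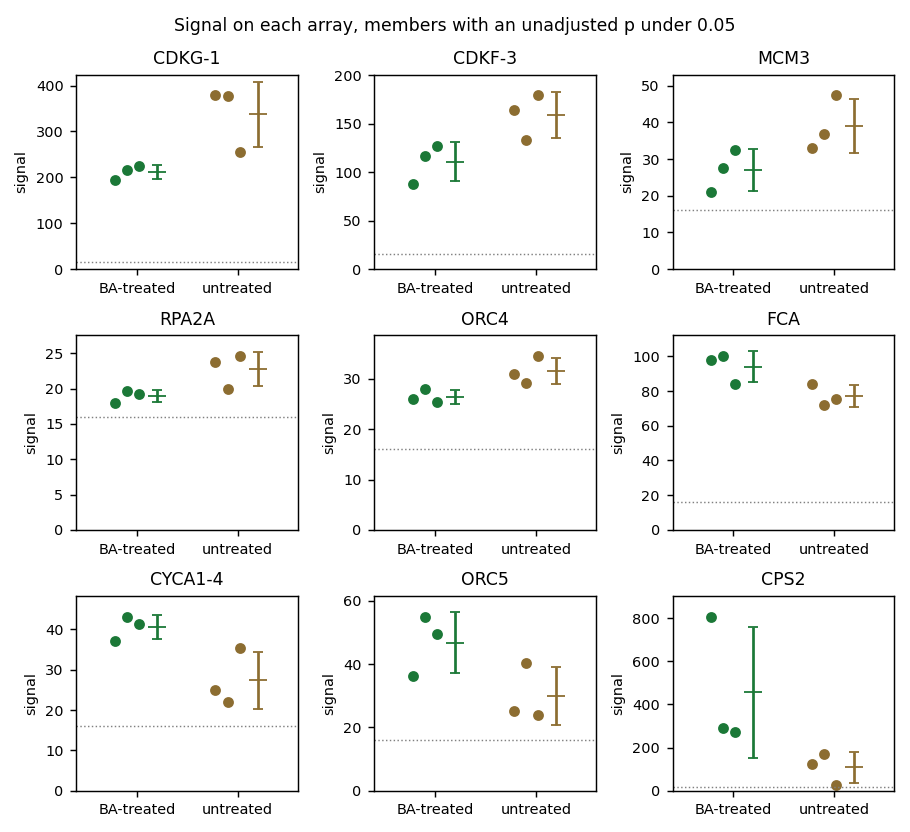
Signal (vertical, linear axis from 0) on each array for the 9 genes with an unadjusted p under 0.05, BA-treated arrays left and untreated arrays right in each panel. Bars give the mean and SD of 3 arrays and the dotted line the constant of 16. CDKG-1, CDKF-3, MCM3, RPA2A and ORC4 were lower on every BA-treated array, CYCA1-4 and CPS2 higher, and the groups of ORC5 and FCA overlapped.

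Kinases and cyclins of transcription lay well above the constant, and none passed a threshold. CDKE-1, the kinase of the Mediator complex, had 1763, 1951 and 2041 in BA-treated leaves, against 1520, 1252 and 1908 in untreated leaves. BA-treated signals ran higher but overlapped with untreated replicate 3, at a log2 change of 0.32 (interval -0.090 to 0.72, adjusted p = 0.733), and its second probe set went the other way, at -0.19 (adjusted p = 0.918). Without untreated replicate 2 the log2 change of CDKE-1 was 0.17, and without untreated replicate 3 it was 0.47 (adjusted p = 0.32). Cyclin C, the partner of that kinase, was measured as CycC1;1, at 298 ± 6.12 with BA and 298 ± 28.5 without (SD, n = 3 arrays each). CDKC-1 and cyclin T form the kinase that releases paused RNA polymerase II. CDKC-1 had a log2 change of -0.070, CycT1;2 of 0.032 and CycT1;4 of 0.058, each with overlapping groups. The cyclin L gene CYCL1-1 read 291, 424 and 419 with BA, against 287, 380 and 390.5 without, again with replicate 1 lowest in both groups (log2 change 0.091). Over the 5 genes of the C, H, L and T types, log2 changes ran from 0.0023 to 0.091, but intervals were wide, as for CYCL1-1 (-0.39 to 0.57). P-type cyclins resemble a yeast cyclin of phosphate sensing. CYCP2-1, CYCP3-1 and CYCP4-1 had log2 changes of 0.016, -0.060 and -0.032. CYCP2-1 lay under the array median on all arrays and CYCP4-1 read only 22.6 to 26.3, so a change could go unseen there. CYCP3-1 had an interval of -0.58 to 0.46.

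For 13 of the 68 genes more than 1 probe set was read, and for 6 of these all probe sets had the same sign. The widest disagreement was in CDKG-2. Its brightest probe set gave 357, 609 and 611 in BA-treated leaves, against 463, 638 and 623 in untreated leaves (log2 change -0.16, adjusted p = 0.935). Another of its 3 probe sets, the only one outside the classes that can cross-hybridize or read several transcripts, gave 156, 91.0 and 107 with BA, against 40.6, 59.6 and 63.9 without. There the groups did not overlap and the log2 change was 1.09 (adjusted p = 0.265), so the value of CDKG-2 depends on the probe set, and the cause was not tested.

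**Figure D4:**
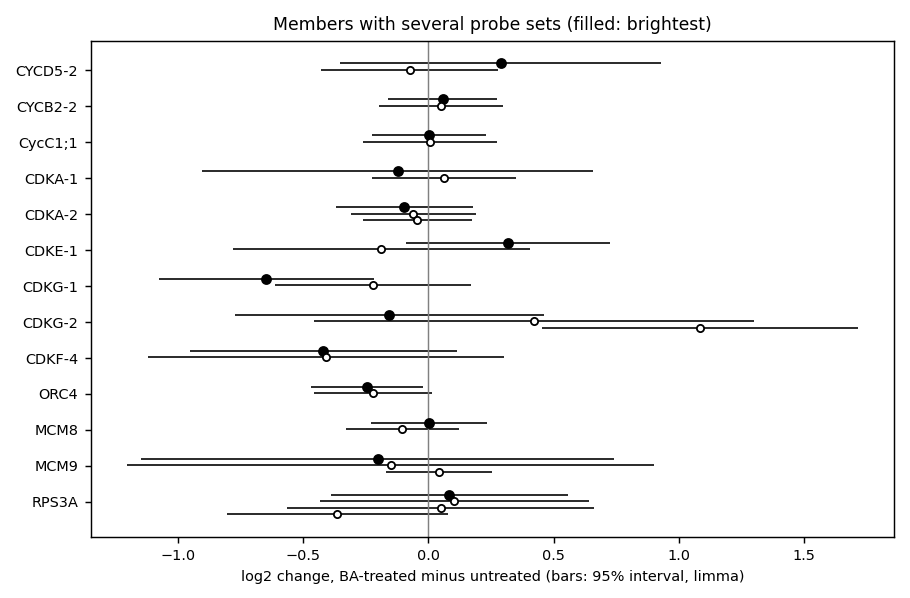
Log2 change (BA-treated minus untreated, horizontal) with its 95% interval from limma for every probe set of the 13 genes read from more than 1. Filled points are the brightest probe set of each gene, open points the others. The probe sets of CDKF-4 and ORC4 lie close together, whereas those of CDKG-2 run from -0.16 to 1.09.

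The origin recognition complex marks where replication starts, and its subunits differed in direction. ORC5 had signals of 36.1, 54.9 and 49.5 in BA-treated leaves, against 25.1, 40.4 and 24.0 in untreated leaves. Untreated replicate 2 lay above BA replicate 1, so the groups overlapped, at a log2 change of 0.65 (standard error 0.25, interval 0.043 to 1.26, adjusted p = 0.549). ORC4 gave 25.9, 27.9 and 25.4 with BA, against 30.9, 29.2 and 34.5 without. All BA-treated arrays were lower, by little (log2 change -0.24, interval -0.47 to -0.022, adjusted p = 0.534), and a second probe set gave -0.22 (adjusted p = 0.63). ORC2 read 71.0, 157 and 133 with BA, against 97.3, 97.9 and 113 without. Its log2 change of 0.15 (adjusted p = 0.947) was 0.49 without BA replicate 1 (adjusted p = 0.305) and -0.077 without BA replicate 2. ORC3 had a log2 change of 0.043 and ORC1, at 16.9 to 19.9 in both groups, of -0.0084.

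MCM2 to MCM7 form the ring helicase that unwinds DNA at the fork, and of the 5 measured subunits only MCM3 exceeded the array median on most arrays. MCM3 had signals of 21.1, 27.5 and 32.5 in BA-treated leaves, against 33.0, 36.8 and 47.4 in untreated leaves. The highest BA-treated array lay just under the lowest untreated one, at a log2 change of -0.52 (standard error 0.20, interval -1.01 to -0.032, adjusted p = 0.552). Because the constant of 16 makes up much of these signals, the value was -1.09 (adjusted p = 0.547) when 15 was first subtracted from every signal, an alternative chosen after the signals were seen. The subtraction also widened changes of dim genes that were higher with BA, to 1.22 for ORC5 (adjusted p = 0.499) and 1.18 for CYCA1-4 (adjusted p = 0.457). MCM2, MCM4 and MCM5 stayed between 16.3 and 19.4 in both groups, with log2 changes of -0.037, -0.047 and -0.10, and MCM7 gave 17.4, 22.7 and 19.5 with BA, against 16.7, 19.8 and 18 without (log2 change 0.12, adjusted p = 0.894). MCM8 and MCM9 are relatives that act in repair by recombination. MCM8 was near the constant (log2 change 0.0026), and MCM9 read 29.1, 66.5 and 65.8 with BA, against 40.5, 66.7 and 72.8 without, with replicate 1 low in both groups (log2 change -0.20, interval -1.15 to 0.74, adjusted p = 0.946).

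Among the proteins that coat, clamp and copy DNA, PCNA and the 5 RFC subunits lay above the array median on every array, whereas RPA1B and RPA2C lay under it on all 6. PCNA, the ring that holds the polymerase on DNA, had 103, 151 and 167 in BA-treated leaves, against 88.8, 130 and 179 in untreated leaves. The BA-treated range lay inside the untreated one, at a log2 change of 0.11 with an interval from -0.63 to 0.85 (adjusted p = 0.967), which leaves room for a change over 1.5-fold in either direction. RFC, the loader of this ring, was measured by all 5 subunits, and 4 had a log2 change above 0. RFC4 read 39.1, 69.1 and 61.1 with BA, against 31.3, 52.0 and 37.5 without. The groups overlapped (log2 change 0.47, interval -0.20 to 1.13, adjusted p = 0.777), and the log2 change was 0.71 without BA replicate 1 (adjusted p = 0.424) but 0.31 without BA replicate 2 or untreated replicate 1. RFC1, RFC2, RFC3 and RFC5 had log2 changes of 0.11, 0.10, 0.023 and -0.10, all with overlapping groups.

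RPA covers single-stranded DNA during replication and repair as a complex of a large, a middle and a small subunit. RPA2A, a middle subunit, gave 18, 19.6 and 19.2 in BA-treated leaves, against 23.7, 20.0 and 24.6 in untreated leaves. The groups were just apart, at a log2 change of -0.25 (interval -0.50 to -0.00044, adjusted p = 0.588), and -0.95 (adjusted p = 0.511) with 15 subtracted. RPA2B, the brighter middle subunit, had 117, 170 and 182 with BA, against 134, 124 and 218 without (log2 change -0.00019, interval -0.66 to 0.66). RPA2C was near the constant, with a log2 change of -0.090. The large subunits RPA1A, RPA1B and RPA1C had log2 changes of 0.051, 0.041 and -0.21, and the small subunit RPA3 of -0.059. Of these, RPA1C varied most, with 34.6, 65.0 and 62.3 with BA, against 35.5, 87.5 and 70.1 without. Among the polymerases, POLD1 and POLD2, subunits of the lagging-strand polymerase delta, differed little (log2 change -0.075 for POLD1 and 0.11 for POLD2). The repair polymerase POLL read 24.4, 19.6 and 21.3 with BA, against 18, 20.2 and 17.4 without, overlapping at a log2 change of 0.22 (adjusted p = 0.719).

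Replicate 1 was often the dimmest array in both groups. The lowest signal of the BA-treated group was on replicate 1 for 42 of the 68 genes (61.8%), against 55.7% of all genes by the brightest probe set. In the untreated group it was on replicate 1 for 35 of the 68 (51.5%), against 38.3% of all genes. For 29 genes (42.6%) replicate 1 was the lowest in both groups, against 27.5% of all genes. Averaged over the 68 genes, BA replicates 1, 2 and 3 deviated from each gene's mean by -0.11, 0.094 and 0.071 on the log2 scale, and untreated replicates 1, 2 and 3 by -0.090, -0.012 and 0.051. Across the 68 genes, which are not independent, the deviations of BA replicate 1 and untreated replicate 1 from their group means had r = 0.72. Those of the replicates 3 had r = 0.67, but those of the replicates 2 only r = 0.059. Pairs of unlike number ran from r = -0.70 (BA replicate 3, untreated replicate 1) to 0.49 (BA replicate 2, untreated replicate 3). Deviations within a group cancel out, and BA replicates 2 and 3 were nearly alike, so these r values depend on each other. Among the values above, replicate 1 was the lowest in both groups for CDKA-1, CYCL1-1, PCNA, MCM9 and RPA1C. The labels do not say that a number marks a shared batch. With the number as a block in the fit, none of the 68 had an adjusted p under 0.05 and the counts at 1.5-fold and an unadjusted p under 0.05 were again 2 higher and 1 lower.

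**Figure D5:**
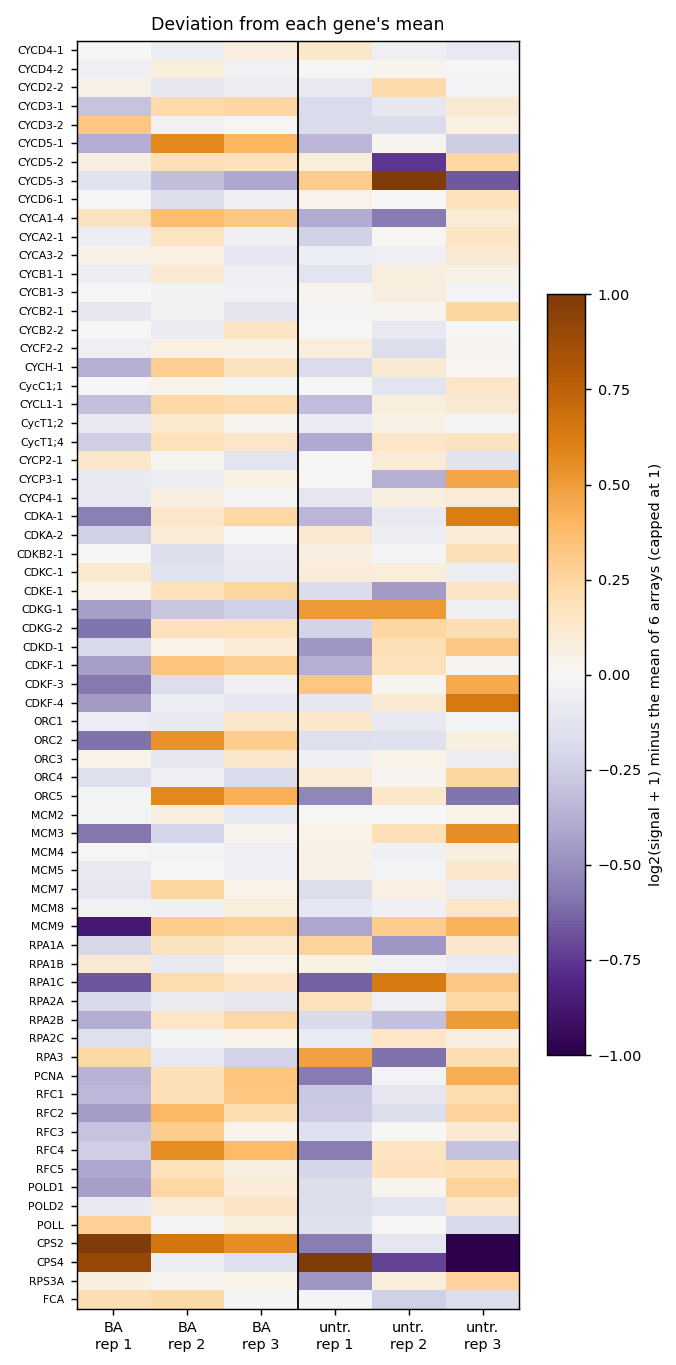
Deviation of log2(signal + 1) on each array from the gene's mean over 6 arrays, by colour and capped at 1, for the 68 genes (rows, in the order of the plot of log2 changes) and the 6 arrays (columns, BA-treated left of the line, untreated right). Violet is below and orange above the mean. Replicate 1 of both groups is violet for many genes, from CDKA-1 through MCM9 to PCNA and the RFC subunits, whereas CPS2 and CPS4 are orange on BA replicate 1.

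Histone H2B genes, which package new DNA and fall outside the name rule, did not pass any threshold. Of 9 such genes that the reference names, 5 had a probe set alone. H2B.6 had signals of 419, 647 and 688 in BA-treated leaves, against 561, 550 and 641 in untreated leaves (log2 change -0.028, adjusted p = 0.988). H2B.11 gave 396, 492 and 607 with BA, against 707, 560 and 553 without, with overlap (log2 change -0.29, adjusted p = 0.806). H2B.5 and H2B.7 had log2 changes of 0.090 and -0.13, and H2B.10 was near the constant. These genes are near-identical copies, so each value can hold signal from the others.

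No gene of the CDK inhibitors, CDC25-like phosphatases and retinoblastoma proteins passed the adjusted test. Of 8 measured CDK inhibitors and CDC25-like phosphatases, 3 had a log2 change above 0 and 5 below. CDC25.1 and CDC25.2, which are not inhibitors, were among those above 0, at log2 changes of 0.10 and 0.16. Of the 8, 1 was over 1.5-fold lower with an unadjusted p under 0.05, as were 4.74% of all genes by the brightest probe set. That gene, SMR1, a small inhibitor of CDKs, had signals of 72.3, 61.7 and 70.4 in BA-treated leaves, against 89.6, 88.1 and 154 in untreated leaves. All BA-treated arrays were lower, at a log2 change of -0.64 (adjusted p = 0.519). KRP6, of the other inhibitor family, differed by -0.51 (adjusted p = 0.64) and KRP4 differed by 0.24 (adjusted p = 0.796) on the log2 scale. The inhibitor EL2 read 1517, 1100 and 1075 with BA, against 1899, 1637 and 772 without, with overlap. The retinoblastoma genes OsRBR1 and OsRBR2 had log2 changes of -0.044 and 0.13. In 4 genes of histone chaperones and the centromere, 1 had an unadjusted p under 0.05, beside 14.3% of all genes by the brightest probe set. That was FAS2, a subunit of the chaperone that loads histones onto new DNA, at 37.1, 42.5 and 36.5 with BA, against 27.7, 34.8 and 23.7 without (log2 change 0.43, adjusted p = 0.512). The log2 change was 0.32 for MSI1, a partner of FAS2 in that chaperone (adjusted p = 0.76), and -0.48 for the chaperone NAP1 (adjusted p = 0.804). None of 5 genes of nucleases and topoisomerases, 5 of recombination and repair and 11 of histone and DNA modification had an unadjusted p under 0.05. In these lists the smallest p belonged to TOP6B, MSH5 and HDA703, at log2 changes of 0.24, 0.17 and -0.55. Genes of the anaphase-promoting complex, and the licensing and helicase factors outside ORC and MCM such as CDC6 and CDT1, were matched by no name and are not analysed here.

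The 4 genes that match a prefix but belong to other families held the widest change of the 68. CPS2 (also named CYC2) is a diterpene cyclase on the way to phytoalexins, the antimicrobial compounds of rice. Its signals were 804, 291 and 272 in BA-treated leaves, against 125, 171 and 28.8 in untreated leaves. All BA-treated arrays were higher, with the highest and the lowest signals each on 1 array, and the log2 change was 2.21 (standard error 0.76, interval 0.34 to 4.08, adjusted p = 0.495). It was 1.44 (adjusted p = 0.466) without untreated replicate 3 and 1.71 (adjusted p = 0.613) without BA replicate 1. CPS4 (also CYC1), the cyclase of another phytoalexin branch, read 616, 316 and 297 with BA, against 677, 199 and 163 without, where replicate 1 was high in both groups (log2 change 0.46, interval -1.0 to 1.92, adjusted p = 0.918). It was 0.075 without untreated replicate 3 (adjusted p = 0.984) and 1.1 without untreated replicate 1 (adjusted p = 0.478), where it passed 1.5-fold and an unadjusted p under 0.05. FCA, an RNA-binding protein that controls flowering in Arabidopsis, gave 98.0, 100.03 and 83.8 with BA, against 83.9, 71.9 and 75.5 without. The groups overlapped by a narrow margin (log2 change 0.28, interval 0.020 to 0.54, adjusted p = 0.545). RPS3A, a ribosomal protein of the small subunit once named CYC07, had a log2 change of 0.084 and, by the mean of its 4 probe sets, of -0.031.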

How the data were processed

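Per the labels and methods, the authors deposited an intensity for each probe set on each of 6 arrays, on a linear scale, made by PLIER with variance stabilization. RMA is also named in the submitters' processing notes. Neither source used here gives the versions or how arrays were scaled to each other. Values were used as log2(signal + 1) with no further normalization. Names came from the platform annotation and, through gene identifiers, from the rice assembly ASM3414082v1, where all 17905 identifiers of the 22436 probe sets with 1 gene matched. The brightest probe set stood for a gene with several. The 123 control probe sets were not tested.

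The 3 BA-treated and 3 untreated arrays were compared by limma (version 3.58.1, R 4.3.3), using lmFit and eBayes. P-values were adjusted by Benjamini-Hochberg across all 57258 rice probe sets, and 0.05 was the threshold. The study states thresholds of fold and p for its arrays without naming the test there, and its general statement on statistics was not taken to cover them. The fit was also run on simulated arrays with independent noise. These lack the deviations that the real arrays share, so that run cannot judge the fit for them. Replicates are called biological in the methods. Precision is limited by how few arrays there are.

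Members and lists were chosen with earlier results of these data known. The rule named, for each role, genes past a threshold, the brightest gene, and up to 3 genes per direction with the smallest p, and up to 3 genes per list. All other members and list genes were named after their values were seen, to complete a family. Alternatives were quantile normalization, other offsets, eBayes trend, array weights, leaving out dim probe sets or those that can cross-hybridize, averaging a gene's probe sets, the replicate number as a block, BA replicates 2 and 3 averaged, and each array left out.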

Additional observations from a re-analysis of the deposited data

How the results depend on the processing

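None of the 68 genes had an adjusted p under 0.05 from limma in any of the 18 alternatives, and the median log2 change moved by less than the spread between replicates (0.0949) in each. The count at 1.5-fold and an unadjusted p under 0.05, 2 higher and 1 lower over all arrays, moved to 1 higher with offset 16, 4 higher with array weights, 0 lower with a gene's probe sets averaged, 1 higher and 3 lower with BA replicates 2 and 3 averaged, and 3 higher and 2 lower with 15 subtracted (an alternative chosen after seeing the data). It was 3 higher with quantile normalization, with offset 0 and without probe sets that can cross-hybridize. With 1 array left out the numbers ran from 1 to 4 higher and from 1 to 3 lower. They were 4 higher without BA replicate 1 (CYCA1-4, CYCD5-1, ORC5 and RFC4), 1 higher without BA replicate 2, 1 higher and 3 lower without BA replicate 3, and 2 lower without untreated replicate 3. CDKG-1 was past these thresholds in 14 of the alternatives, CPS2 in 17 and ORC5 in 12.

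The replicate numbers were not taken to pair the samples. Over all probe sets the deviations of same-numbered arrays had r = 0.42, -0.013 and 0.42 for numbers 1, 2 and 3. Pairs of unlike number ran from r = -0.40 to 0.27, the highest being BA replicate 2 with untreated replicate 3. The labels name no shared factor, and the cause was not tested. With the replicate block the counts were 2 higher and 1 lower and the median log2 change 0.0029, with 0 genes called.

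Over 32 named genes, 23 kept their sign in every alternative that gave a value. The sign of the log2 change turned for RPA2B with quantile normalization (0.017), array weights (0.19) and 15 subtracted (0.0016), for RFC5 (0.020) and POLD1 (0.080) with array weights, for RPS3A with probe sets averaged (-0.031), and for CycT1;4 (-0.010), CDKF-1 (-0.012) and ORC2 (-0.018) with BA replicates 2 and 3 averaged. With 1 array left out the log2 changes ran from -0.13 to 0.19 for CycT1;4, -0.049 to 0.36 for CDKF-1, -0.077 to 0.49 for ORC2, -0.0062 to 0.098 for RPA1B, -0.15 to 0.25 for RPA2B, -0.019 to 0.31 for RFC1, -0.24 to 0.073 for RFC5, -0.21 to 0.13 for POLD1 and -0.13 to 0.24 for RPS3A. The causes were not tested. Filters on dim probe sets left 44 and 59 of the 68 genes, and 58 had a probe set outside the classes open to cross-hybridization.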
